A study of Homo sapiens with 6 samples.

Results

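The histone genes of HCT116 cells were followed in polyadenylated RNA, before and after oxaliplatin. Members were the rows of the deposited gene table whose symbol is a histone name of the HIST1H to HIST4H, H2AF or H3F3 kind or its current form, which 83 rows met. The row HIST2H3PS2 was dropped because its symbol has the form of a pseudogene name. The 82 genes left of the 27942 in the table comprised 70 replication-dependent genes and 12 variant genes. HCT116 is an established human colon carcinoma cell line with functional p53, and oxaliplatin is a platinum drug that forms adducts on DNA. Sequencing libraries were made from 3 samples of non-treated cells (NT) and 3 samples of cells given oxaliplatin at 0.5 µM for 24 h (OXA), each from polyA-selected RNA with a strand-specific kit. All 6 samples came from the same line and medium, and nothing in the labels says that they were separate cultures, so the p-values measure the spread between these samples, which may be technical.

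Histones are the proteins that DNA is wrapped around. H2A, H2B, H3 and H4 form the core of the nucleosome, and H1 binds the linker DNA between nucleosomes. Replication-dependent histone genes lie in clusters, mostly lack introns, and are transcribed mainly in S phase, when new DNA must be packaged. Their mRNAs normally end just after a short stem-loop, which is bound by the protein SLBP, and carry no polyA tail. Variant histones such as H2A.Z, macroH2A and H3.3 are made throughout the cell cycle from mRNAs with introns and ordinary polyA tails. A library made from polyA-selected RNA therefore retains the polyadenylated variant mRNAs, and of the replication-dependent genes it shows mainly transcripts that were polyadenylated or carried over.

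The libraries held between 32979521 and 40967880 counts. NT1 stood apart from the other NT libraries, with a chi-square per gene of 83.1 and 75.7 against them, where the other pairs within a group lay between 19.2 and 29.6. NT1 was low for some histone genes rich in G and C (HIST1H2BK, HIST3H2A, H2AFX and H2AFJ), but not for HIST1H2AG or HIST1H3H. All 10 epithelial marker genes passed the filter on low counts, whereas of the fibroblast, leukocyte and endothelial lists 1 gene each of 8, 8 and 5 did (COL1A1, CD68 and VWF), and DCN, LUM, THY1, CD3D and MS4A1 were at 0 in every library. In bulk RNA, fewer cells that express a gene and less RNA per cell cannot be told apart.

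The stem-loop was searched for first, because histone mRNAs without a polyA tail normally end just after it. A pattern of 16 bases on the strand of the gene (GG, 2 bases of any kind, CTT, 1 base, T, 1 base, AG, 2 bases and CC) was looked for in the 100 bases after the stop codon of the GENCODE 44 transcripts on GRCh38. All 66 replication-dependent genes whose identifier was matched in that annotation held it, starting 23 to 63 bases after the stop codon, against 5 of 19869 other coding genes (0.025%). Of the 12 variant genes 1 held it, H2AFX. The 30 bases around it are shown for members whose values carry the results below, with the stem-loop in capitals.
HIST2H2BE (chr1:149886181-149886210, minus strand): ctccaaaGGCTCTTTTCAGAGCCacccacc
HIST1H3E (chr6:26225589-26225618, plus strand): atccaaaGGCTCTTCTCAGAGCCaaccact
HIST1H2BD (chr6:26158580-26158609, plus strand): tcccaaaGGCTCTTTTAAGAGCCacgcatg
HIST1H2AC (chr6:26124662-26124691, plus strand): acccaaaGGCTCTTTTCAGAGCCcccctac
HIST2H4A (chr1:149833025-149833054, plus strand): tcccaaaGGCCCTTTTTAGGGCCgaccact
H2AFX (chr11:119094891-119094920, minus strand): ccacaaaGGCCCTTTTAAGGGCCaccaccg
The stem of 36 of the 66 genes read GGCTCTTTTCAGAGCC, and none of these 36 was an H4 gene. All 15 H4 genes had a stem of GGCCC paired with GGGCC, as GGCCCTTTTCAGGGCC in 10 of them and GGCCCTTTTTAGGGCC in 4. H2AFX, the variant that is phosphorylated at DNA breaks, had the same stem as the H4 genes. Its gene is known to give both stem-loop and polyadenylated mRNA.

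Replication-dependent histone genes made up a very small part of these libraries, and that part was larger in OXA than in NT. Their 70 rows together held 311, 448 and 570 counts in NT1 to NT3, and 560, 648 and 795 in OXA1 to OXA3. Scaled to TMM-adjusted library size (CPM, the usual unit of such counts), this was 8.83, 12.9 and 14.5 in NT and 16.8, 19.6 and 19.7 in OXA, without overlap between the groups. The mean summed level was 12.1 ± 2.91 CPM in NT and 18.7 ± 1.63 CPM in OXA (SD, n = 3), a ratio of 1.55. The log2 of that ratio was 0.63, and it was 0.45 without NT1. The 12 variant genes summed to 2273, 2338 and 2469 CPM in NT and to 2070, 2057 and 2201 CPM in OXA, with the OXA libraries all below the NT libraries (2360 ± 99.97 and 2109 ± 79.7 CPM, a ratio of 0.894). The variant genes thus had 257, 181 and 171 times the summed level of the replication-dependent genes in NT1 to NT3, and 123, 105 and 112 times in OXA1 to OXA3. No test was made of these sums, since the members were chosen as a list.

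**Figure D1:**
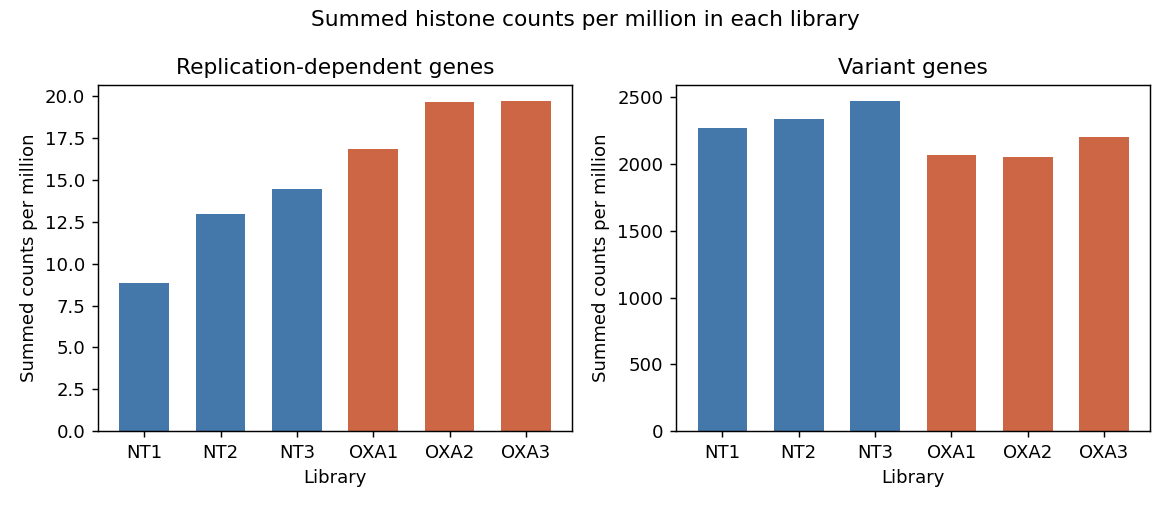
Summed CPM of the 70 replication-dependent genes (left) and of the 12 variant genes (right) in each library, 1 bar per library, NT in blue and OXA in orange, each axis from 0. Replication-dependent sums lie between 8.83 and 14.5 CPM in NT and between 16.8 and 19.7 CPM in OXA, and variant sums between 2273 and 2469 CPM in NT and between 2057 and 2201 CPM in OXA.

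By family, the summed level of the replication-dependent H3 genes was 1.06 ± 0.201 CPM in NT and 2.10 ± 0.426 CPM in OXA, a ratio of 1.98. For the H4 genes the ratio was 1.73, for H2B 1.57, for H2A 1.47 and for H1 1.32. The 5 families pointed the same way, but each sum rests on few counts, between 21 and 309 per library. The H2A sums overlapped between the groups, with OXA1 at 4.54 CPM below NT2 at 4.76 and NT3 at 5.10. Few genes held much of some sums. HIST1H3E alone had 0.518 CPM in NT and 1.34 in OXA of the H3 sum. HIST2H4A and HIST2H4B together had 0.618 and 1.22 CPM of the H4 sum. Among variant genes, the 3 H3F3 genes summed to 1174 ± 5.43 CPM in NT and 1169 ± 17.5 CPM in OXA, and the 9 H2A variant genes to 1186 ± 98.6 CPM in NT and 941 ± 96.7 CPM in OXA, a ratio of 0.793.

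Of the 70 replication-dependent genes, 21 had no count in any library and 14 passed the filter. By the quasi-likelihood test of edgeR, adjusted by Benjamini and Hochberg's method over all genes tested, 1 of these 14, HIST2H2BE, was higher in OXA at an adjusted p under 0.05 and 0 were lower. The background was 2.78% of the 13727 genes tested called higher and 2.29% called lower. At an unadjusted p under 0.05, 5 of the 14 were higher (background 10.7%) and 0 lower (11.1%). DESeq2, which called more of all genes than edgeR did, gave an adjusted p for 8 of the 14 and called HIST2H2BE among those 8. NT and OXA libraries of the same number varied together. Blocked by replicate number, the fit called 4 of the 14 higher (HIST2H2BE, HIST1H3E, HIST1H2BD and HIST1H2AC) and 0 lower, against backgrounds of 12.1% and 10.9%. For 7 of the 14 all OXA values were above all NT values, and for 0 below, where 14.5% and 14.4% of all genes tested did so. All 14 had a log2 fold change above 0, as did 53.3% of genes tested. Their median was 0.81 (range 0.18 to 1.56), beside 0.02 for all genes tested. With the block and the dependence on transcript GC and length taken out, 11 of 13 were above 0, HIST3H2A (-0.15) and HIST1H2BN (-0.14) were below, and the median was 0.45.

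The filter asks for enough counts in 3 libraries, so a gene could pass through its OXA libraries alone. HIST2H2BE, HIST2H4A, HIST2H4B, HIST1H3H, HIST2H2AA3 and HIST1H2BC had fewer than 3 NT libraries above it and passed only with OXA libraries. This can raise the fold changes of the 14 as a set. In the 8 replication-dependent genes with every NT library above it, the median log2 fold change was 0.60, with 0 called by edgeR, 4 at an unadjusted p under 0.05 and 3 called with the block. Of the 56 genes that did not pass, 35 had some counts, at most 12 in any library. Together they held 29, 66 and 81 counts in NT and 54, 58 and 66 in OXA, so the groups overlapped. Over all 70 genes the mean CPM was higher in OXA in 30 and lower in 19, and among all genes with at least 1 count it was higher in 52.6%.

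HIST2H2BE, a core H2B gene of the HIST2 cluster on chromosome 1 (chr1:149884459-149886682, minus strand), had the largest log2 fold change of the 14. It had 14, 8 and 14 counts in NT1 to NT3 and 29, 31 and 45 counts in OXA1 to OXA3. The lowest OXA library thus lay above the highest NT library, and the mean level was 0.328 ± 0.0866 CPM in NT and 0.975 ± 0.125 CPM in OXA (SD, n = 3). The log2 fold change was 1.56 with a standard error of 0.30 (adjusted p = 0.0304 by edgeR). NT2 was below the level of the filter, so the gene passed the filter only with its OXA libraries. The call rests on all libraries together. The edgeR adjusted p was 0.0273 without NT1 and between 0.0883 and 0.130 without any other library, with log2 fold changes between 1.34 and 1.72.

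HIST1H2BD, an H2B gene of the HIST1 cluster on chromosome 6, had 26, 26 and 59 counts in NT and 68, 69 and 94 in OXA. NT3 was the highest NT library and still below all OXA libraries. The mean level was 0.995 ± 0.434 CPM in NT and 2.15 ± 0.152 CPM in OXA (log2 fold change 1.10 ± 0.31 SE, adjusted p = 0.0864 by edgeR). With the replicate block the adjusted p was 0.0256, and 0.0107 after the dependence of each library on transcript GC and length was also taken out. The latter fit called more genes over the whole table than the block alone.

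HIST1H2BK, another H2B gene of this cluster, had 27, 57 and 64 counts in NT and 55, 64 and 64 in OXA. The groups overlapped, with NT1 alone well below the rest, and the GC content of the transcript is 58.2%. The log2 fold change was 0.35 with a standard error of 0.31 (adjusted p = 0.567 by edgeR), and about 22.5% of the 100-base stretches of its transcript also occur in other transcripts. The H2B genes HIST1H2BN and HIST1H2BC overlapped between the groups as well, with log2 fold changes of 0.18 and 0.26. Their sign, and that of HIST3H2A, turned without at least 1 of the libraries.

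The H3 gene HIST1H3E (chr6:26224199-26227473, plus strand) showed the second largest difference. It had 17, 16 and 24 counts in NT and 61, 35 and 45 in OXA, without overlap, and OXA1 was the highest. The mean level was 0.518 ± 0.0793 CPM in NT and 1.34 ± 0.432 CPM in OXA, and the log2 fold change was 1.35 with a standard error of 0.31. It fell just outside the threshold (adjusted p = 0.0519 by edgeR) and inside it with the replicate block (0.0276). HIST1H3H, an H3 gene of the same cluster, had 11, 6 and 17 counts in NT and 21, 16 and 21 in OXA. Its OXA libraries lay above its NT libraries in CPM, and the log2 fold change was 0.81 (standard error 0.38, adjusted p = 0.266 by edgeR).

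The H4 genes HIST2H4A and HIST2H4B encode the same protein, and every 100-base stretch of either transcript also occurs in the other, so counts can be divided between them arbitrarily. HIST2H4A had 2, 29 and 2 counts in NT and 20, 23 and 25 in OXA, and HIST2H4B had 15, 0 and 19 in NT and 19, 23 and 19 in OXA. NT2 was high for the first gene and at 0 for the second, and without NT2 the log2 fold change of HIST2H4A moved from 1.04 (adjusted p = 0.540 by edgeR) to 3.46 (0.0262). Summed as 1 feature, a choice made after these values were seen, they had 17, 29 and 21 counts in NT and 39, 46 and 44 in OXA. The sum was higher in every OXA library, with 0.618 ± 0.192 CPM in NT and 1.22 ± 0.157 CPM in OXA (log2 fold change 0.98 ± 0.29 SE, adjusted p = 0.101 by edgeR, and 0.0361 with the replicate block). HIST1H4J, a further H4 gene, had 0 counts in all NT libraries and 2, 6 and 4 counts in OXA, at or near the floor of 3 counts and too few to test. About 90.7% of its 100-base stretches are shared with HIST1H4K, which had 0, 3 and 2 counts in NT and 0 in all OXA libraries, and the sum of the pair overlapped between the groups (0, 3 and 2 counts in NT, and 2, 6 and 4 in OXA).

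Of the H2A genes, HIST1H2AC (chr6:26124145-26139116, plus strand) had 42, 57 and 65 counts in NT and 60, 95 and 112 in OXA. In CPM the lowest OXA library, OXA1, was just above the highest NT library, at 1.80 against 1.65. The log2 fold change was 0.73 with a standard error of 0.26 (adjusted p = 0.150 by edgeR). With the replicate block the adjusted p was 0.0304, and it was 0.0969 with the dependence on transcript GC and length also taken out. HIST3H2A, the H2A gene of a small cluster elsewhere on chromosome 1, had the highest level per kilobase of the class in NT (3.56 CPM per kilobase). It had 44, 69 and 87 counts in NT and 53, 59 and 116 in OXA, with NT1 the lowest and a transcript GC content of 64.7%. The groups overlapped (log2 fold change 0.20 ± 0.31 SE, adjusted p = 0.764 by edgeR).

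HIST1H2AG was higher in CPM in each OXA library than in any NT library (log2 fold change 0.81 ± 0.29 SE, adjusted p = 0.157 by edgeR). HIST2H2AA3 had 0, 11 and 11 counts in NT and 7, 19 and 29 in OXA. It overlapped between the groups, with a log2 fold change of 1.32 and a standard error of 0.80 (adjusted p = 0.392 by edgeR). No length was assigned to it, since its identifier in the table was not matched in the annotation used. HIST1H1C, the linker histone H1.2 and the only H1 gene of the class to pass the filter, had 41, 56 and 70 counts in NT and 62, 79 and 82 in OXA. Its CPM did not overlap between the groups (1.52 ± 0.317 in NT and 2.10 ± 0.271 in OXA), but the difference did not pass the test (log2 fold change 0.46 ± 0.23 SE, adjusted p = 0.305 by edgeR, and 0.126 with the replicate block).

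**Figure D2:**
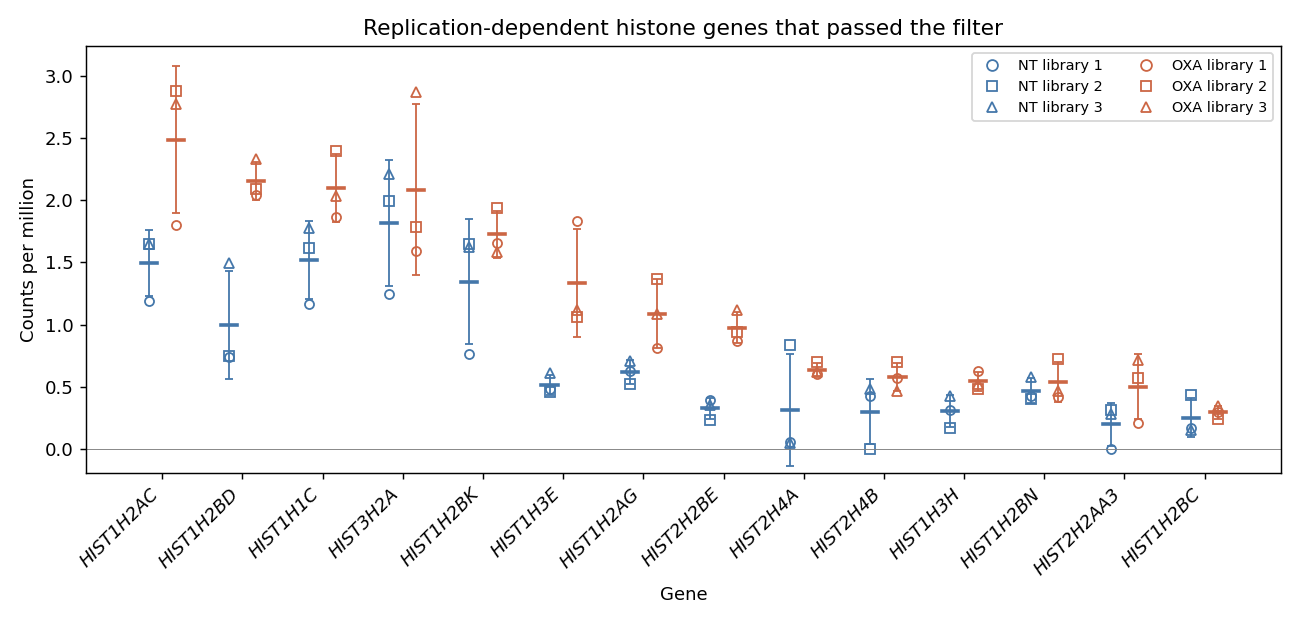
CPM of the 14 replication-dependent histone genes that passed the filter, in order of their mean in OXA, with 1 symbol per library (NT blue, OXA orange), the mean as a thick line and the SD as bars (n = 3). The groups do not overlap for 7 genes, among them HIST2H2BE, HIST1H3E, HIST1H2BD and HIST1H2AC, and a single NT library sets the spread of HIST2H4A.

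Most replication-dependent genes that passed the filter, 10 of 14, had a longer transcript in the annotation. For 17 of the 66 matched genes, GENCODE 44 lists a transcript that ends over 100 bases past the stem-loop, by 430 bases or more. Of these 17, 10 passed the filter, and they and the other 7 held 63.5% of the counts of the class. For the other 49 genes, no transcript ends more than 18 bases past the stem-loop. Of these 49, 3 passed the filter (HIST1H1C, HIST1H2AG and HIST1H2BK) and 18 were at 0 in all libraries, against 1 of the 17. The table of counts does not say where in a gene the reads lay, so which 3′ end was used was not tested. HIST2H2BE is the clearest example, with a single exon of 2224 bases that continues 1729 bases past the stem-loop shown above. The longer form of HIST1H3E ends 1862 bases past it, and those of HIST1H2BD and HIST1H2AC reach 12747 and 14432 bases along the chromosome.

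Counts were also uneven between genes that start next to each other. Many H2A and H2B genes are arranged head to head, with their start sites a short distance apart. HIST2H2BE and HIST2H2AC lie 236 bases apart, and they had 141 and 16 counts over the 6 libraries. HIST2H2AC had 1, 4 and 6 counts in NT and 1, 3 and 1 in OXA. It did not pass the filter, and these counts are too few to say whether it followed its neighbour. HIST1H2AC and HIST1H2BC, 219 bases apart, had 431 and 59 counts, and HIST1H2BK and HIST1H2AH, 251 bases apart, had 331 and 3. HIST3H2A had 428 counts and HIST3H2BB 27. The region of 300 bases from 250 before the start (RefSeq, GRCh38.p14) is shown for 1 gene of each of the first and second pairs. It is the gene with more counts, and the region reaches across the gap to the neighbour. Capitals mark CCAAT and TATAAA in either orientation, which do not overlap each other here.
HIST2H2BE (chr1:149886633-149886932, minus strand): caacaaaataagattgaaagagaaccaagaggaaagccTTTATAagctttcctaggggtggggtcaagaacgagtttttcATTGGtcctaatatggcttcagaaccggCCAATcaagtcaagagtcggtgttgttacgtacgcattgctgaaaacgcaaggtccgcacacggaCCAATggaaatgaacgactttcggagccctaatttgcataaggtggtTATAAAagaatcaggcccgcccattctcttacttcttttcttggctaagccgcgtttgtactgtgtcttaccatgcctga
HIST1H2AC (chr6:26123922-26124221, plus strand): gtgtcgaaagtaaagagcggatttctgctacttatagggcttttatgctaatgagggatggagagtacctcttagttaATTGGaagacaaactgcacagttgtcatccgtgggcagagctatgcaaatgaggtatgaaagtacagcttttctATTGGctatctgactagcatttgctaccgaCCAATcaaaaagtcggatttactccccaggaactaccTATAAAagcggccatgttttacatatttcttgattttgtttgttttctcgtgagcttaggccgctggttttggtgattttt
Of 61 replication-dependent genes with such a region, 83.6% held CCAAT and 65.6% TATAAA in either orientation, against 35.7% and 12.0% of 27305 promoters of the same length. These 61 regions are not all separate, since genes that start head to head share much of theirs. HIST1H2AD and HIST1H3D were given the same region. Of 11 variant genes 81.8% held CCAAT and 27.3% TATAAA. HIST2H2BE held 3 matches to CCAAT and 2 to TATAAA, with a TATAAA on the side of either gene of the pair. These matches describe the letters of the window only.

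Among the 12 variant genes, 8 passed the filter, 1 (H2AFB3) was at 0 throughout, and edgeR called 0 at an adjusted p under 0.05, where 5.07% of all genes tested were called. At an unadjusted p under 0.05, 4 of the 8 were lower in OXA and 0 higher (background 11.1% and 10.7%). DESeq2, which called more of all genes than edgeR did, called 2 of the 8 lower, H2AFZ and H2AFV. With the replicate block, edgeR called 4 lower (H2AFZ, H2AFV, H3F3A and H2AFY2) and 0 higher (10.9% and 12.1%). The groups did not overlap in 5 of the 8, lower in those 4 and higher in H3F3B (14.4% and 14.5%). The median log2 fold change of the 8 was -0.24 (range -0.55 to 0.29). Without NT1, edgeR called H2AFZ and H2AFY2. The number of all genes called also varied between the fits that left out 1 library.

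H2AFZ and H2AFV encode H2A.Z.1 and H2A.Z.2, variants found at gene starts and regulatory regions. H2AFZ had 503, 540 and 667 CPM in NT and 345, 339 and 484 CPM in OXA. The third library was the highest in each group, and the means were 570 ± 85.9 and 389 ± 82.3 CPM. The log2 fold change was -0.55 with a standard error of 0.17 (adjusted p = 0.109 by edgeR), and the adjusted p was 0.00407 with the replicate block. H2AFV had 211, 187 and 213 CPM in NT and 153, 143 and 174 CPM in OXA, again without overlap (log2 fold change -0.38 ± 0.10 SE, adjusted p = 0.0814 by edgeR, and 0.00854 with the block).

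H2AFY and H2AFY2 encode macroH2A1 and macroH2A2, large H2A variants of repressed chromatin. H2AFY2 had 55.6, 69.6 and 64.4 CPM in NT and 49.1, 51.2 and 51.5 CPM in OXA. The OXA libraries lay close together below NT1 (log2 fold change -0.32 ± 0.11 SE, adjusted p = 0.129 by edgeR, and 0.0271 with the block). H2AFY, the more abundant of the pair, overlapped between the groups at 288 ± 7.42 CPM in NT and 292 ± 8.56 CPM in OXA (log2 fold change 0.02 ± 0.08 SE, adjusted p = 0.903 by edgeR).

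H2AFX, the variant gene with a stem-loop, had 37.3, 74.9 and 63.5 CPM in NT and 38.0, 56.3 and 52.6 CPM in OXA. Library 1 was the lowest of each group, and the GC content of the transcript is 66.8%. The log2 fold change was -0.26 with a standard error of 0.26 (adjusted p = 0.621 by edgeR). With the block and the dependence on transcript GC and length taken out it was -0.49, with an adjusted p of 0.000943 by edgeR. That fit called more genes over the whole table than the main fit or the block alone. H2AFJ, a H2A variant with a GC content of 63.1%, was the least abundant of the 8 and showed the same low NT1, with 30, 102 and 104 counts in NT and 66, 118 and 95 in OXA (log2 fold change 0.29 ± 0.44 SE, adjusted p = 0.756 by edgeR).

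The H3.3 genes H3F3A and H3F3B encode the same protein, the H3 variant that is put into chromatin outside replication, and their values pointed in opposite directions, a difference that was not itself tested. H3F3A had 409, 382 and 403 CPM in NT and 357, 335 and 334 CPM in OXA, without overlap (log2 fold change -0.22 ± 0.08 SE, adjusted p = 0.163 by edgeR, and 0.0256 with the block). H3F3B, the most abundant histone gene in CPM, had 768, 786 and 775 CPM in NT and 825, 841 and 814 CPM in OXA. All OXA libraries were above all NT libraries, yet the log2 fold change was only 0.09 with a standard error of 0.08 (adjusted p = 0.545 by edgeR, 0.192 with the block, and 0.0241 with the block and the dependence on GC and length taken out). Of these fits, the last called the most genes over the whole table. About 64.3% of the 100-base stretches of H3F3A also occur in other transcripts, mostly pseudogenes. H3F3C, a retrocopy that encodes H3.5, had 0 counts in NT and 2, 5 and 3 counts in OXA, at or near the floor of 3 counts. These were too few to test. Per kilobase of transcript, the order in NT was H2AFZ (659 CPM per kilobase), H3F3A (372), H3F3B (287), H2AFY (150) and H2AFV (67.3).

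**Figure D3:**
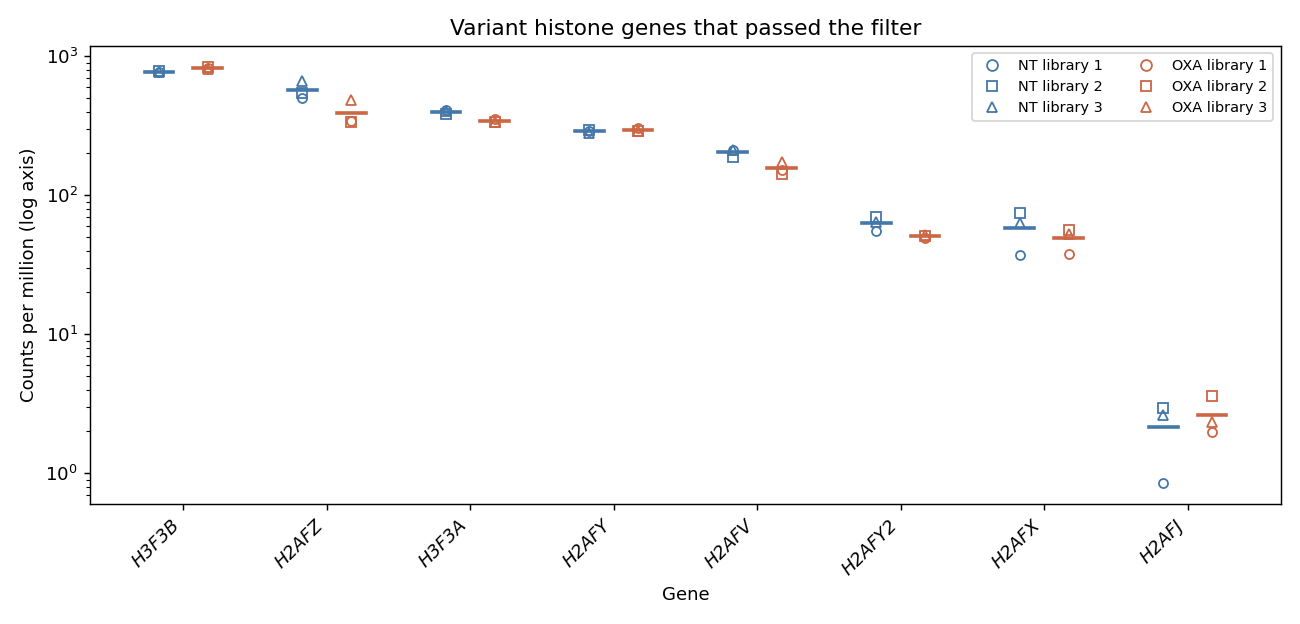
CPM of the 8 variant histone genes that passed the filter, on a log axis, with 1 symbol per library (NT blue, OXA orange) and the mean of 3 libraries as a line. H2AFZ, H3F3A, H2AFV and H2AFY2 are lower in every OXA library, H3F3B is higher in every OXA library, and NT1 is the lowest NT library for H2AFX and H2AFJ.

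**Figure D4:**
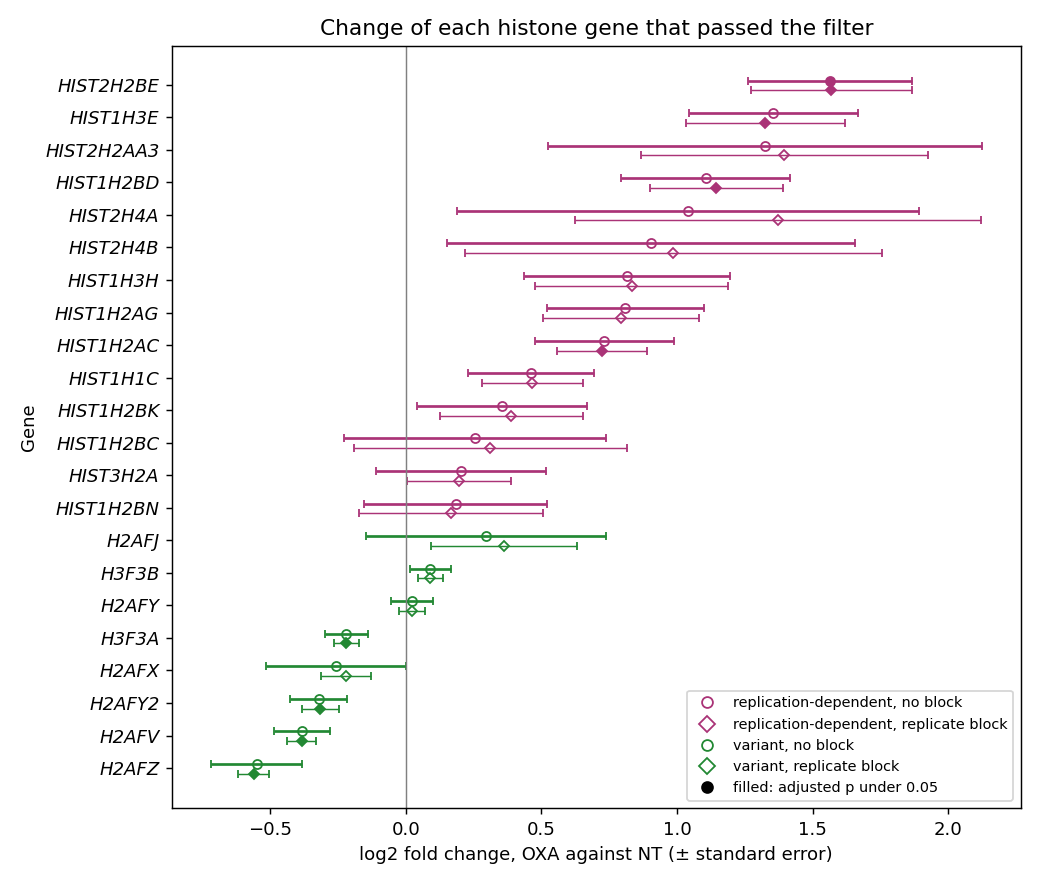
Log2 fold change of OXA against NT with its standard error for the 22 histone genes tested, without (circles) and with (diamonds) the replicate block. Filled symbols have an adjusted p under 0.05. All 14 replication-dependent genes lie above 0, between 0.18 and 1.56, and 5 of the 8 variant genes lie below 0, down to -0.55.

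With the replicate block, which called 23.0% of all genes tested, the called genes of the classes pointed in opposite directions. In that fit 4 of 14 replication-dependent genes were called higher and 0 lower. Of 8 variant genes 4 were called lower and 0 higher, each beside the shares of all genes given above. Without the block, edgeR called 1 replication-dependent gene higher and 0 variant genes. With GC and length trends also removed, the variant H3F3B was called higher (log2 fold change 0.12, adjusted p = 0.0241 by edgeR). The classes also differed in level by orders of magnitude, and the percent error of the replication-dependent genes is large at 8 to 112 counts per library for the genes called in either fit. Abundant RNA without a polyA tail was looked at beside them. Of 59 such genes listed, 2 were in the table: RMRP, with 6, 36 and 17 counts in NT and 10, 16 and 14 in OXA, and TERC, with at most 2 counts in a library. RMRP overlapped between the groups (0.547 ± 0.446 CPM in NT and 0.377 ± 0.0958 CPM in OXA), and its direction rested on NT2, with a log2 fold change of -0.53, and of 0.28 without NT2. The part of carry-over of RNA without a tail in the histone values was not tested further.

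The genes that transcribe and process replication-dependent histone mRNA were measured with the same libraries. Of 29 such genes tested, 0 were higher and 5 lower in OXA by edgeR (background 2.78% and 2.29%), with a median log2 fold change of -0.15. At an unadjusted p under 0.05, 2 were higher and 8 lower (background 10.7% and 11.1%), and with the block 2 (LSM10 and HINFP) were higher and 11 lower (12.1% and 10.9%). SLBP, which binds the stem-loop, had 156 ± 12.7 CPM in NT and 114 ± 7.90 CPM in OXA (log2 fold change -0.46 ± 0.10 SE, adjusted p = 0.0421 by edgeR). ERI1, an exonuclease that trims histone mRNA at the stem-loop, fell by a similar amount (log2 fold change -0.46, adjusted p = 0.0454 by edgeR). NPAT, the activator that cyclin E and CDK2 phosphorylate to switch on histone genes, had 55.4 ± 5.89 CPM in NT and 36.5 ± 2.63 CPM in OXA (log2 fold change -0.60, adjusted p = 0.0273 by edgeR). CASP8AP2, which encodes FLASH of the 3′ end cleavage complex, was lower by more (log2 fold change -0.90, adjusted p = 0.00975 by edgeR), as was CCNE2, which encodes cyclin E2 (log2 fold change -1.17, adjusted p = 0.00615 by edgeR). CCNE2 was called whichever library was left out. The other cyclin E gene, CCNE1, was not called (log2 fold change -0.08, adjusted p = 0.717 by edgeR). CDK2 was called only with the block (log2 fold change -0.39, adjusted p = 0.0605 by edgeR, and 0.00907 with the block). The calls of SLBP and ERI1 held without NT1 and were lost without any other library (adjusted p by edgeR up to 0.167 and 0.180), that of NPAT was lost without NT3 or any OXA library (up to 0.132), and that of CASP8AP2 without OXA1 or OXA2 (up to 0.0617).

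The U7 snRNP proteins, which guide the cleavage after the stem-loop, had log2 fold changes of either sign. LSM10 had 14.9, 24.1 and 22.8 CPM in NT and 30.3, 31.6 and 31.0 CPM in OXA (log2 fold change 0.59 ± 0.18 SE, adjusted p = 0.105 by edgeR, and 0.0278 with the block). For LSM11 the log2 fold change was -0.21 (adjusted p = 0.302 by edgeR), and for ZNF473, a partner of this complex, 0.09 (adjusted p = 0.636 by edgeR). Histone chaperones carry new histones to DNA. Of 30 tested, 0 were higher and 6 lower by edgeR (background 2.78% and 2.29%), their median log2 fold change was -0.23, and 13 were lower and 0 higher at an unadjusted p under 0.05 (11.1% and 10.7%). Those called were CHAF1A and CHAF1B, subunits of the chromatin assembly factor CAF-1 (log2 fold changes -0.78 and -0.62), ASF1B, which hands over H3 and H4 (-0.75), HJURP, the chaperone of CENP-A (-0.50), MMS22L (-0.56) and YEATS4, which is part of complexes that deposit H2A.Z (-0.51). All 6 were called without NT1. The call of CHAF1B was lost without OXA1 or OXA2, ASF1B without any library but NT1 or OXA3, CHAF1A and HJURP without NT3 or any OXA library, and MMS22L and YEATS4 without any library but NT1. CENPA, the centromeric H3 variant, lay outside the naming rule and had 23.2 ± 1.58 CPM in NT and 17.7 ± 2.36 CPM in OXA (log2 fold change -0.39, adjusted p = 0.132 by edgeR, and 0.0200 with the block).

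**Figure D5:**
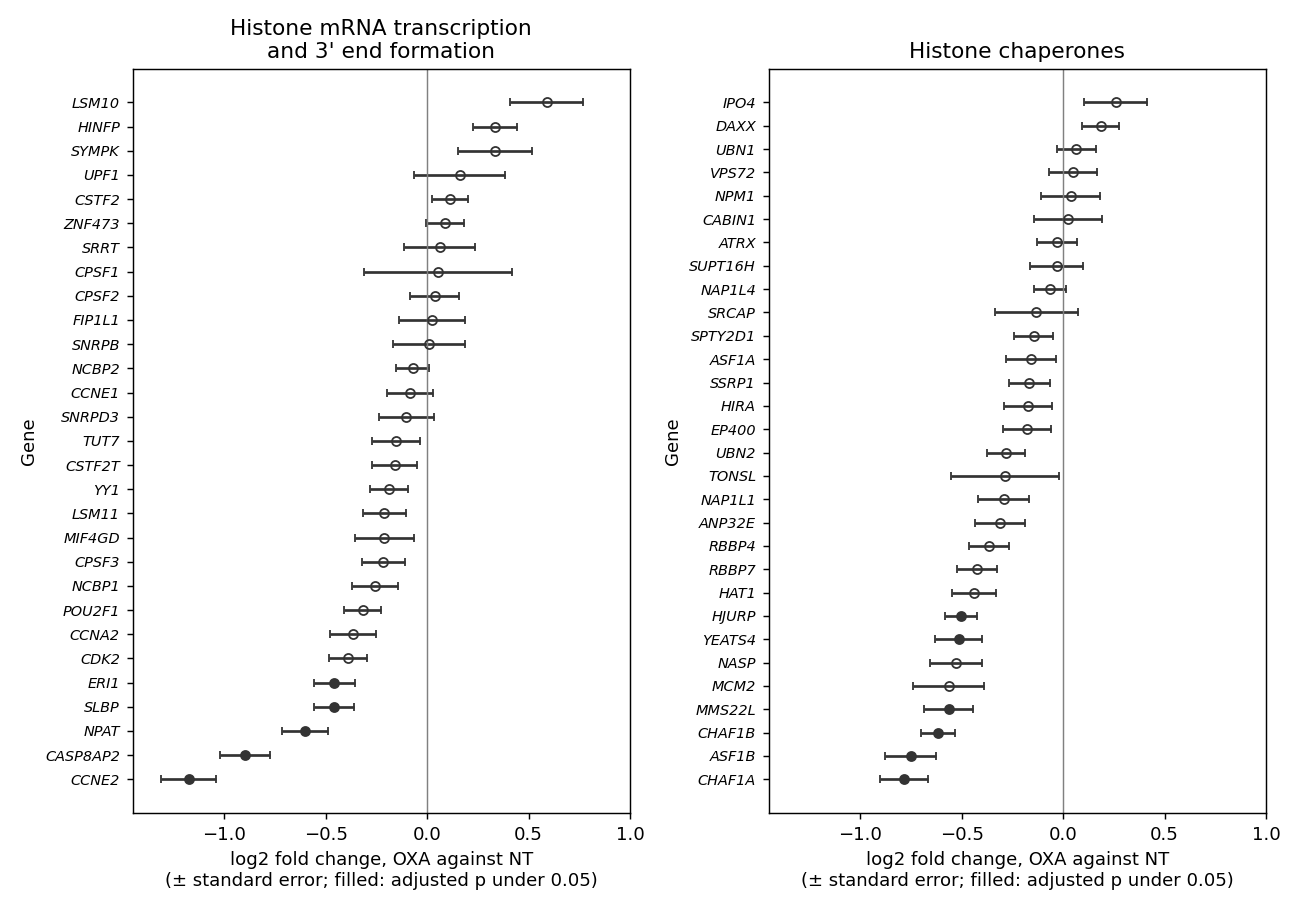
Log2 fold change of OXA against NT with its standard error for 29 genes of histone mRNA transcription and 3′ end formation (left) and 30 histone chaperones (right). Filled circles have an adjusted p under 0.05: 5 genes on the left, from ERI1 at -0.46 to CCNE2 at -1.17, and 6 on the right, from HJURP at -0.50 to CHAF1A at -0.78, all of them below 0.

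Genes of S phase, the part of the cell cycle in which replication-dependent histones are made, were measured as well. Of 18 tested, SLBP included, 9 were called lower and 0 higher (background 2.29% and 2.78%) and the median log2 fold change was -0.58. Those called included MCM6 of the replicative helicase (-1.01) and FEN1, which processes Okazaki fragments (-0.84). FEN1 was called whichever library was left out, and the call of MCM6 was lost without OXA1 (adjusted p = 0.0584 by edgeR). At an unadjusted p under 0.05, 16 were lower and 0 higher (background 11.1% and 10.7%). The other 2 were PCNA and TYMS, with log2 fold changes of -0.05 and 0.02. The part of cell cycle position in the histone values was not tested. Linker variants with older symbols also lay outside the naming rule and were added after values had been seen. H1F0, which encodes H1.0, had 468, 574 and 556 CPM in NT and 652, 692 and 653 CPM in OXA, without overlap (log2 fold change 0.32 ± 0.10 SE, adjusted p = 0.114 by edgeR, and 0.0195 with the block). H1FX overlapped between the groups, with 6.96 CPM in NT1 and 28.8 and 23.5 CPM in the other NT libraries (adjusted p = 0.771 by edgeR).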

How the data were processed

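RNA of HCT116 cells was sequenced as polyA-selected, stranded libraries, 3 NT and 3 OXA, grouped by the labels. Per the labels and the methods, the authors trimmed reads with Trimmomatic 0.32, mapped them to GRCh38 with STAR 2.7.5b and used RSEM 1.3.3. The gene annotation and strand setting are not given in the sources used here. The authors deposited whole-number counts per gene, used as deposited, and a normalized signal, used for the sums as an alternative only. Members, lists and classes were chosen with earlier results of these data known. Every member that passed the filter could be named, with full values for those called with or without the block and the 5 of each class most abundant per kilobase.

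Genes were filtered with filterByExpr (minimum count 10, minimum total count 15), normalized by TMM and tested with edgeR 4.0.16 (glmQLFit and glmQLFTest, R 4.3.3) with adjustment over 13727 genes. The standard error was the log2 fold change divided by the square root of F. DESeq2 1.42.0 and limma-voom (limma 3.58.1), other scalings and filters, and each library left out were alternatives. The steps were tested on simulated data. Same-numbered libraries deviated together from their group means (correlations of 0.55, 0.54 and 0.31 across genes, all over the limit of 0.1, against -0.47 to 0.09 otherwise), so values with a replicate block are given where they change a call. The numbers come from the labels, which do not say what they stand for. Totals of 32979521 to 40967880 counts make 3 counts the floor used, and it covers counting error only. Positions, lengths and stem-loops came from GENCODE 44 on GRCh38, and promoters from RefSeq on GRCh38.p14. Some genes that the rule selects are not reported by name.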

Additional observations from a re-analysis of the deposited data

How the results depend on the processing

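No result changed its direction past the threshold under any alternative. The 1 histone gene called became 2 with upper quartile factors and with library totals alone, 0 at a minimum count of 50 (which leaves 13 of the 22 genes), 3 with DESeq2, 8 with the replicate block, 9 with the block and GC and length trends removed, and 0 to 3 without 1 library. For replication-dependent genes (1 called) these were 2 with library totals alone, 0 at a minimum count of 50, 4 with the block, 3 with block and trends, and 0 to 1 without 1 library. For variant genes (0 called) they were 1 with upper quartile factors (H2AFV), 2 with DESeq2, 4 with the block, 6 with block and trends, and 0 to 2 without 1 library. A minimum count of 50 removes HIST2H2BE, which had at most 45 counts in any library, so its call could not be made there. Over all genes, 696 calls of 13727 tested (5.07%) became 1271 with DESeq2, 3157 with the block (23.0%), 6218 with block and trends, and 85 to 1194 without 1 library. The cause of these shifts was not tested. Counts of histone genes called under an alternative are to be read beside the number it called over all genes. DESeq2 size factors, limma-voom and no filter left the calls of the 22 genes as they were.

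The median log2 fold change of replication-dependent genes, 0.81, was 0.23 with no filter, when genes with few counts enter. It was 0.46 at a minimum count of 50, when HIST2H2BE and other genes with few counts drop out. With the block and GC and length trends removed (13 genes, added after seeing the data) it was 0.45, and without 1 library 0.68 to 0.91. The median of variant genes, -0.24, was -0.0063 with no filter, -0.30 with block and trends, and -0.28 to -0.17 without 1 library. The summed variant level (log2 ratio -0.16) was -0.30 without H3F3B, its most abundant member. HIST1H3E was also called with library totals alone (adjusted p = 0.0499, edgeR). The block changed no call of a histone gene other than those given. Depth limits the replication-dependent genes, of which 56 had at most 12 counts in any library.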
